A study of Mus musculus with 10 samples.

Results

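Messenger RNA of 7 transcription factor genes of the B cell lineage was described in blood neutrophils of the mouse. The genes are Ebf1, Pax5, Pou2af1, Spib, Bach2, Mef2c and Bcl11a, taken by gene symbol from 17097 genes on the array. For each gene the probe set (a group of array probes against 1 transcript) with the highest mean over the 10 arrays was read. The 10 donors were untreated 3-month-old C57BL/6 males kept for 9 days in the facility beforehand. Neutrophils from 5 animals went on 1 array each (mouse 1 to mouse 5). Blood of the remaining 5 animals was pooled and split into 5 portions (pool 1 to pool 5), so the pool arrays are technical replicates of 1 sample and show the noise of isolation, extraction, labelling and hybridization. Neutrophils were isolated with magnetic beads through Ly6G, a surface protein of mouse neutrophils, at a purity of 71.5% to 99.5%, for which the labels give no value per sample. All values are log2 array signals, a difference of 1 being 2-fold, and the number of arrays limits their precision.

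These factors take part in making and maintaining B cells. Ebf1 and Pax5 commit a lymphoid precursor to the B lineage and switch on its receptor genes. Pou2af1 (also called OBF-1 or OCA-B) is a coactivator that joins Oct factors on the octamer site of immunoglobulin promoters, and Spib is an ETS factor related to PU.1. Bach2 holds back the step from B cell to plasma cell, Mef2c supports the response to the B cell receptor, and Bcl11a is needed early in the lineage. They are not restricted to B cells: Spib and Bcl11a are also made in plasmacytoid dendritic cells, Bach2 in T cells, and Mef2c in megakaryocytes and some myeloid cells. Ms4a1, the B cell surface protein CD20, served as the reference.

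The promoters of Pou2af1 and Spib are shown because these genes ran closest to Ms4a1 over the arrays, and that of Bach2 because it departed from them in mouse 3. Each line is the RefSeq sequence of 250 bases upstream of the transcript start in GRCm38.p6, read 5′ to 3′ on the strand of the gene. They lie at chr9:51213440-51213689 (Pou2af1, plus strand), chr7:44532072-44532321 (Spib, minus strand) and chr4:32417185-32417434 (Bach2, plus strand). Capitals mark TGCAAAT, the octamer ATGCAAAT without its first letter.
Pou2af1: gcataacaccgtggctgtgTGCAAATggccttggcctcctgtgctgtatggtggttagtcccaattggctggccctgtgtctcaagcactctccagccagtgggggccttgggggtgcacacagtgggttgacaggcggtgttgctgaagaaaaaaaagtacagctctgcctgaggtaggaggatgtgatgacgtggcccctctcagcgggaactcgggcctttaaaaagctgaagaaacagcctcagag
Spib: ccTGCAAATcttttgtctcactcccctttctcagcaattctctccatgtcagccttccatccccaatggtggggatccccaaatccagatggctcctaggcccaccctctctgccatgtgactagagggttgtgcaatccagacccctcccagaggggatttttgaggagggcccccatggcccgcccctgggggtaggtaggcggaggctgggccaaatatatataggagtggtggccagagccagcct
Bach2: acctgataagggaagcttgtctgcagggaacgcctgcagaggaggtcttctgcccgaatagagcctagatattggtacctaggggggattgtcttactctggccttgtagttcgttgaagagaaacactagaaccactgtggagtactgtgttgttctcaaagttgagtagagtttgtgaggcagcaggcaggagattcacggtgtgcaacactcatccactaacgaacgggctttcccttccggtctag

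All 7 genes had an entry in the RefSeq promoter table, with 10 transcript starts in all. TGCAAAT, searched on both strands after these letters were seen, was present upstream of 2 of the 10 starts, those shown, and of 3.56% of 32851 starts of all genes. It lay on the gene's own strand, its first base 231 bases upstream of the Pou2af1 start and 248 bases upstream of that of Spib. The full octamer ATGCAAAT, which contains TGCAAAT, was in 0 of the 10 windows and 1.6% of all. The core TGAGTCA bound by AP-1 and Bach factors was likewise in 0 of 10, and in 4.46% of all. The ETS sequence GAGGAAG was upstream of 1 start of Mef2c and of 10.6% of all. These matches describe letters in a window and were not tied to any binding measurement. The windows of Bcl11a and Pax5 held 16 and 19 CpG pairs against a median of 6 over all promoters, and those of Spib and Pou2af1 held 2 and 5.

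The neutrophil genes S100a8 and S100a9 read 12.28 to 13.29 on the 10 arrays; Ly6g was not analysed here. The arrays differed in the upper range of signal and in their correlation with each other, for reasons that were not tested. The 95th percentile of signal was 7.46 in mouse 5 and 8.72 to 9.25 in the other arrays, and the correlation of mouse 5 with any other array was at most 0.800 across probe sets. Mouse 4 reached at most 0.939 with another array, with a 95th percentile of 8.80. Results are therefore given with and without these mice.

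The factors had the same broad pattern over the mice, apart from Pax5 in mouse 5 and Bach2 in mouse 3. In mouse 5 Pax5 read 4.49 against 4.50 in mouse 1, a gap smaller than its SD of 0.13 between pool arrays. Among the mice all 7 read highest in mouse 3, as did 28.7% of all tested genes. For Bach2 this was a near tie, with 8.29 in both mouse 1 and mouse 3 and an SD of 0.53 between pool arrays. All 7 read lower in mice 4 and 5 than in mice 1 to 3, as did 38.4% of all tested genes. Mouse 4 was the lowest array of the 10 for 6 of the 7 genes, as it was for 22.6% of tested genes.

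Ebf1, which opens the B lineage program, read 7.43, 7.64, 9.19, 2.99 and 5.84 in mice 1 to 5. In pool 1 to pool 5 it read 7.73, 7.20, 6.90, 6.92 and 6.29. The SD was 2.35 between the mice (n = 5) against 0.52 between the pool arrays (n = 5). Mouse 4 read below 4.58, the median of all probe sets, where a log2 signal sets no firm level. With mouse 4 raised to that median, the mice spanned at least 24.4-fold with an SD of 1.77, while the pool spanned 2.72-fold. Mouse 4 and mouse 5 lay below every pool array and mouse 3 above every one, while mice 1 and 2 lay within the range of the pool.

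Pax5, which keeps B cells committed, was read by a single probe set near the bottom of the signal range. It read 4.50, 4.70, 4.90, 3.26 and 4.49 in mice 1 to 5, while pool 1 to 5 gave 4.69, 4.47, 4.74, 4.80 and 4.70. Its mean of 4.52 lay below 4.58, under which genes were not tested. Mouse 4 lay below every pool array and mouse 3 just above them, while the other 3 mice lay within the pool. With no filter, over 17097 genes, its SD of 0.64 between mice exceeded the 0.13 between pool arrays (limma variance test, adjusted p = 0.00034). The share of the 17097 genes called in this setting was not counted. The call of Pax5 rests on mouse 4. Without mouse 4, a setting added after the data were seen, the SD between mice was 0.19 and the adjusted p was 0.274 (limma). In that setting 9877 of the 17097 genes were called. Mice 1, 4 and 5 and pool 2 read below 4.58. With those values raised to it, the SD of Pax5 was 0.14 between mice and 0.08 between pool arrays. The mice then spanned at least 1.24-fold.

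Pou2af1, the octamer coactivator, read 8.07, 8.29, 10.15, 3.93 and 4.76 in mice 1 to 5, while pool 1 to 5 gave 8.50, 7.17, 7.80, 7.05 and 7.17. The SD was 2.61 between mice and 0.61 between pool arrays, and the mean of mice 1 to 3 was 16.9-fold that of mouse 5. Mouse 4 read below 4.58 here too, so the mean of mice 1 to 3 was at least 19.1-fold above it. As with Ebf1, mice 4 and 5 lay below the pool and mouse 3 above it.

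Spib read 8.40, 8.40, 9.60, 5.12 and 4.88 in mice 1 to 5, while pool 1 to 5 gave 8.40, 7.10, 7.46, 7.54 and 7.19. It was the only member that read lower in mouse 5 than in mouse 4, by 0.25, less than its SD of 0.52 between pool arrays. Mice 1 and 2 and pool 1 read the same level of 8.40.

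Bach2, the repressor of plasma cell genes, read 8.29, 8.16, 8.29, 3.74 and 5.18 in mice 1 to 5, while pool 1 to 5 gave 8.06, 6.73, 7.03, 7.13 and 6.84. Mice 1 to 3 lay above all pool arrays and mice 4 and 5 below all of them, mouse 4 again under 4.58. Among mice 1 to 3 its SD was 0.08, the smallest of the members, and mouse 3 exceeded the mean of mice 1 and 2 by 0.07. For Pou2af1, Ebf1 and Spib that excess was 1.97, 1.66 and 1.20, for Bcl11a, Mef2c and Pax5 it was 0.79, 0.60 and 0.29, and for Ms4a1 1.65. The 2 other probe sets of Bach2 were likewise nearly level over these mice, with 7.71, 7.82 and 7.81 in mice 1 to 3 for one and 5.17, 5.27 and 5.39 for the other. With 1 mouse on one side, these differences between factors in mouse 3 have no test.

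Mef2c read 8.22, 8.49, 8.95, 5.30 and 5.89 in mice 1 to 5, while pool 1 to 5 gave 8.32, 7.18, 7.51, 7.59 and 7.77. Bcl11a, a zinc finger repressor, read 7.87, 7.69, 8.57, 5.04 and 6.48 in mice 1 to 5, while pool 1 to 5 gave 7.56, 7.13, 6.88, 7.13 and 6.77. These genes had the smallest ranges of the 6 tested members, 12.6-fold for Mef2c and 11.6-fold for Bcl11a. For both, mice 4 and 5 lay below every pool array.

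**Figure D1:**
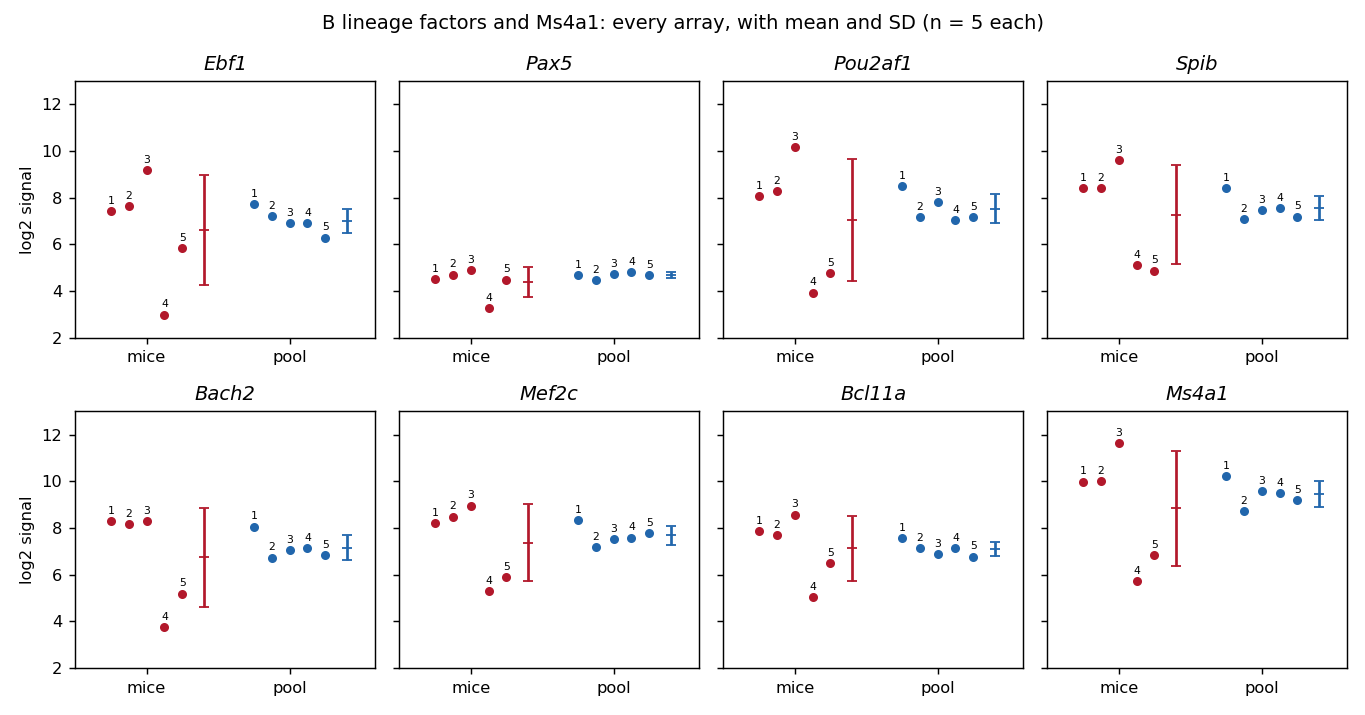
Log2 signal (vertical axis) of the 7 factors and Ms4a1 on each array, with mice in red and pool portions in blue, numbered by replicate; the bar beside each group is its mean with the SD (n = 5). Mouse 4 is lowest in every panel but Spib, where mouse 5 reads 4.88 against 5.12, and Pax5 stays near 4.5.

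The study was designed to separate differences between mice from the noise of the procedure. All 6 members tested varied more between the mice than between the pool arrays, where 66.8% of 10734 tested genes did. These 6 did not owe their place among the tested genes to the mice, since their mean in the pool was 7.01 to 7.67. In the moderated variance test (limma, Benjamini-Hochberg over all tested genes), the adjusted p was 9.74e-05 for Ebf1, 0.000108 for Pou2af1, 0.000135 for Bach2, 0.000139 for Spib, 0.000253 for Bcl11a and 0.000276 for Mef2c. The median log2 ratio of variances (mice over moderated pool) was 4.94 for the 6 members and 2.72 for all tested genes. The median SD between mice was 2.14 for the members and 0.57 for all, and between pool arrays 0.52 and 0.23, so the members were noisier in the technical replicates as well. The SD of Pou2af1 between mice exceeded that of 99.9% of tested genes, and its SD between pool arrays that of 98.7%.

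Without mouse 5, the array of weakest signal, all 6 still varied more between mice, where 20.3% of tested genes did. The adjusted p then ranged from 0.00022 for Ebf1 to 0.00131 for Mef2c (limma). Without mouse 4 in place of mouse 5, all 6 passed too, with 0.000235 for Spib to 0.00715 for Bcl11a, against 60.4% of all. Without both, 0 of the 6 passed, against 0.708% of all tested genes, and 2 members had an unadjusted p under 0.05, Ebf1 (adjusted p = 0.339) and Pou2af1 (adjusted p = 0.303). Among mice 1 to 3 the SD was 0.96 for Ebf1 and 1.15 for Pou2af1, still above the pool, but 0.37 for Mef2c against 0.42 in the pool. The variance calls thus rest on mice 4 and 5, either of which is enough. A Levene-type comparison of absolute deviations in limma called 0 of the 6 members and 0 of all tested genes, with an adjusted p of 0.615 for each member; 0 members and 153 genes had an unadjusted p under 0.05 with larger deviations in the mice.

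**Figure D2:**
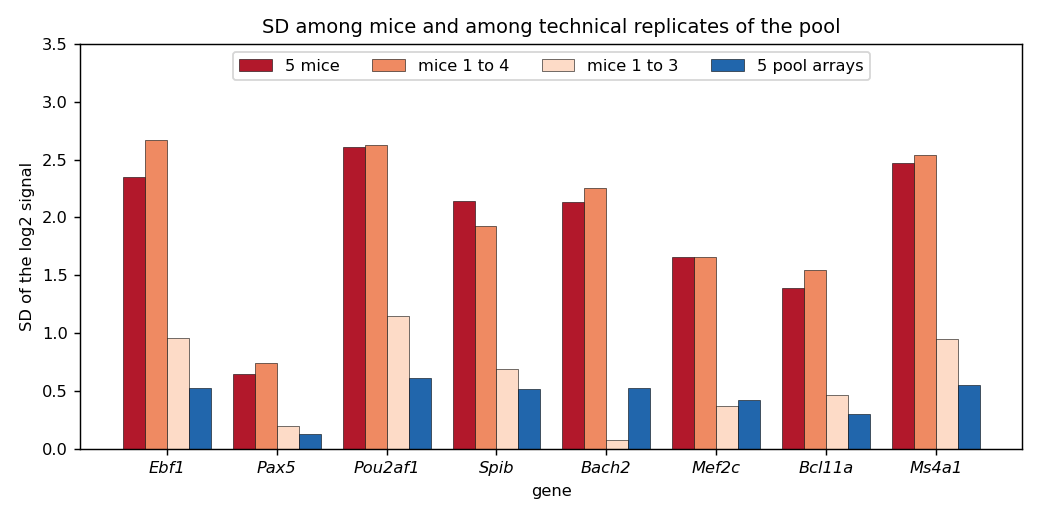
SD of the log2 signal (vertical axis) for each gene among 5 mice, mice 1 to 4, mice 1 to 3 and the 5 pool arrays. The SD stays near its full height without mouse 5 (2.67 for Ebf1) and drops without mice 4 and 5 (0.96), for Bach2 to 0.08.

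The means of mice and pool did not differ beyond the spread between mice. The mean of the mice minus that of the pool was -0.50 (SE 1.26) for Pou2af1, -0.43 (SE 1.04) for Bach2, -0.39 (SE 1.13) for Ebf1, -0.31 (SE 0.85) for Mef2c, -0.26 (SE 1.06) for Spib and 0.04 (SE 0.72) for Bcl11a (n = 5 mice against 1 pool of 5 mice). By limma with the error taken from the mice, 0 of 6 passed (adjusted p = 0.999 each), 0 had an unadjusted p under 0.05, and the ordinary 2-group fit also gave 0. Of all tested genes 0% passed upwards and 0% downwards, with 38 and 522 at an unadjusted p under 0.05. With these errors a difference of several-fold would not have been detectable. Without mice 4 and 5 the 6 members read 0.88 to 1.30 higher in the remaining 3 mice than in the pool. Bach2 alone passed then (1.09, SE 0.14, limma adjusted p = 0.0352), where 1.08% of tested genes passed upwards. The others had an adjusted p of 0.0992 to 0.224, although Pou2af1 (1.30) and Spib (1.26) differed by more than Bach2. The error was taken from mice 1 to 3 alone. Their SD for Bach2 was 0.08, below the 0.53 between portions of 1 pool, so this SE is likely too small.

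Portions of the same blood also differed. Pool 1 was the highest pool array for 6 of 7 members, Pax5 being the exception, and for 35.7% of all tested genes. Its level exceeded the mean of pool 2 to pool 5 by 2.31-fold for Pou2af1, 2.18-fold for Bach2, 2.11-fold for Spib, 1.87-fold for Ebf1, 1.76-fold for Mef2c and 1.50-fold for Bcl11a. For Ms4a1 it was 1.97-fold. Pool 1 thus read closer to mice 1 and 2 than the other portions did for Bach2, Spib, Mef2c and Bcl11a. Without pool 1 the SD between pool arrays was 0.18 in place of 0.53 for Bach2 and 0.34 in place of 0.61 for Pou2af1, and the 6 members still varied more between mice, where 70.7% of tested genes did.

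Ms4a1, the reference, read 9.99, 10.02, 11.65, 5.71 and 6.82 in mice 1 to 5, while pool 1 to 5 gave 10.22, 8.71, 9.57, 9.50 and 9.20. The order of the mice was therefore 4, 5, 1, 2, 3 from low to high. Ebf1, Pax5, Pou2af1 and Mef2c put all 10 pairs of mice in that order. Spib, Bach2 and Bcl11a did so for 9 of 10, Spib exchanging mice 4 and 5, and Bach2 and Bcl11a exchanging mice 1 and 2. Over the 7 members, 67 of 70 pairs of mice ran as in Ms4a1, and 52 of 70 pairs of pool arrays. No such count was made over all tested genes, of which 38.4% read lower in mice 4 and 5 than in mice 1 to 3. Some pairs were near ties. Mice 1 and 2 differed by less than the SD between pool arrays in Ms4a1 (0.55) and in all 6 tested members (0.30 to 0.61). Mice 1 and 5 did so in Pax5 (0.13). The order of mice 1 and 2, including its exchange in Bach2 and Bcl11a, is thus not firm. The members share their arrays, the 5 pool arrays share 1 sample, and the mice fall into high and low arrays, so no correlation was tested.

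The size of the swing differed between the factors. Each gene was set to its own mean over the 10 arrays, and the root mean square difference from Ms4a1 was taken. It was smallest for Pou2af1, at 0.27, followed by Spib at 0.42, Bach2 at 0.48, Ebf1 at 0.57, Mef2c at 0.59, Bcl11a at 0.85 and Pax5 at 1.29, while Ms4a1 itself moved by 1.63. The range of Pou2af1 over the mice was 1.05 times that of Ms4a1 on the log2 scale and that of Ebf1 1.04 times. It was 0.79 for Spib, 0.77 for Bach2, 0.62 for Mef2c, 0.59 for Bcl11a and 0.28 for Pax5. For Ebf1, Pou2af1 and Bach2 these ratios use a value of mouse 4 under 4.58. In mouse 5, where Ms4a1 was at -2.31 from its own mean, Ebf1 was at -0.97, Bcl11a at -0.63 and Pax5 at -0.03. In mouse 3, where Ms4a1 was at 2.51, Bach2 was at 1.35, Mef2c at 1.43, Bcl11a at 1.46 and Pax5 at 0.37. Among the members themselves Bach2 and Mef2c differed least (0.41), then Mef2c and Spib (0.42), Mef2c and Bcl11a (0.43) and Pou2af1 and Spib (0.46).

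A second probe set of Ms4a1, taken up after its values were seen, did not share the low value of mouse 5. It read 9.24, 9.41, 11.51, 6.28 and 9.67 in mice 1 to 5, so that mouse 5 stood above mice 1 and 2 instead of below them. The members ran as this probe set in 53 of 70 pairs of mice. Mouse 4 was lowest by either.

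**Figure D3:**
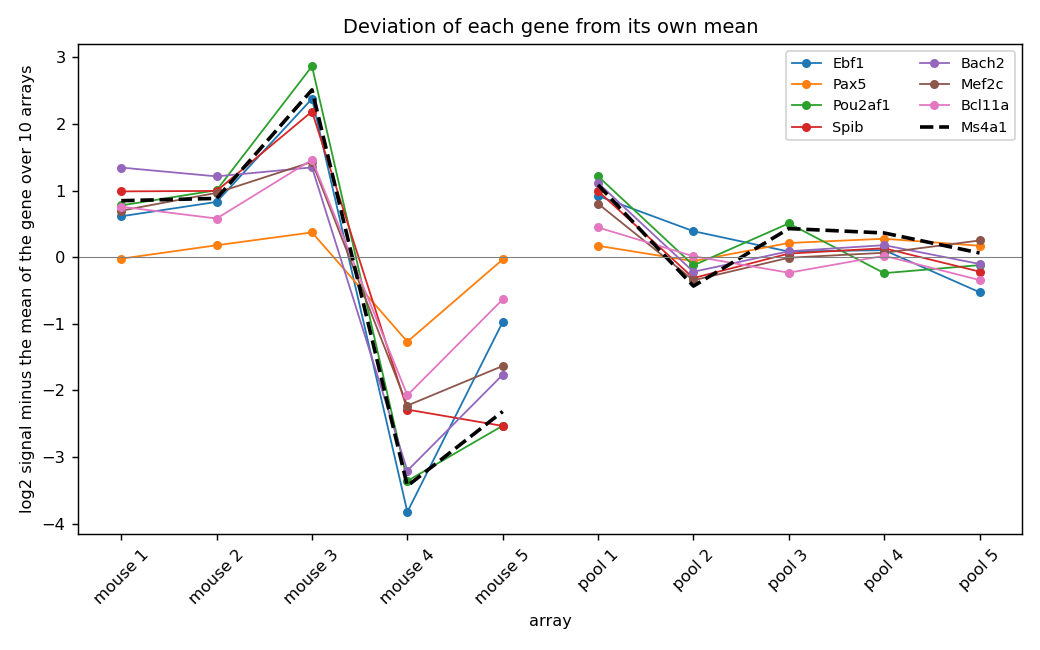
Log2 signal minus the gene's own 10-array mean (vertical axis) by array, for the 7 factors (coloured points) and Ms4a1 (dashed); lines only guide the eye, as replicates have no order. The factors swing with Ms4a1 by different amounts: in mouse 5, where Ms4a1 lies at -2.31, Ebf1 lies at -0.97, Bcl11a at -0.63 and Pax5 at -0.03.

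All probe sets of the members were read as well, since a gene can be targeted at several stretches of its transcripts. There were 16, of which 14 had a mean above 4.58. In all 16, mice 4 and 5 read below mice 1 to 3 and the SD was larger between mice than between pool arrays. Mouse 4 was the lowest mouse in 15 and mouse 3 the highest in 15, the exceptions being Spib and the second Bach2 probe set. Shares over all probe sets were not computed. Over all tested genes, mice 4 and 5 both read below mice 1 to 3 in 38.4%. Mouse 4 was the lowest mouse in 25.6% of them and mouse 3 the highest in 28.7%. The 16 probe sets share their arrays and are not independent. The probe sets of a gene differed in range. Ebf1 had an SD between mice of 2.35, 1.62 and 0.87 in its 3 probe sets, and Bcl11a 1.39, 1.96, 0.90 and 0.27 in its 4. In the third Bach2 probe set pool 2 was the highest pool array (5.60), and mice 1 to 3 (5.17 to 5.39) lay within the pool, whereas they lay above it in the other 2.

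By the root mean square difference over the 10 arrays, the 3 tested genes closest to each member were named. They were Ifi205 (0.30), Cnn3 and Hmgn1 for Ebf1, Cxcr5 (0.23), Blnk and Ms4a1 for Pou2af1, and Ablim1 (0.17), Limd1 and Irf8 for Spib. For Bach2 they were Lpxn (0.27), Ccr6 and Btla, for Mef2c Irf8 (0.23), Tnfrsf13b and Niban3, and for Bcl11a Gimap7 (0.17), Tnfrsf13c and Snx5. For Pax5, whose own range was small, they were Cpox (0.13), 2510002D24Rik and Fto. St6gal1 (0.20), Pou2af1 and Blnk were closest to Ms4a1.

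Partner and other regulators of the B lineage were read from a fixed list of 20 genes, of which 19 were named on the array and 15 tested. In this list 12 varied more between mice, against 66.8% of all genes, and 6 did without mouse 5, against 20.3%. Those 6 were Irf8, Irf4, Ets1, Id3, Ikzf3 and Pou2f2. Of these, Ikzf3 had a mean of 4.29 in the pool, under 4.58, and was tested only through its mean of 5.02 in the mice. Irf8, a partner of PU.1 in B and myeloid cells, read 8.62, 8.80, 9.50, 5.51 and 5.71 in mice 1 to 5 and 7.49 to 8.67 in the pool. Ets1, of the ETS family, read 8.99, 9.13, 10.92, 7.30 and 5.77 in the mice. Irf4, which drives plasma cell differentiation, read 6.55, 6.73, 8.26, 4.87 and 4.91, so that these 3 were high in mouse 3 and low in mice 4 and 5 like the members.

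Other regulators of the list, named after their values were seen, followed the members in part or not at all. Tcf3, which encodes the E proteins that act with Ebf1, read 8.20, 8.27, 8.23, 6.80 and 5.61 in mice 1 to 5, low in mice 4 and 5 but level over the other 3. Xbp1, a factor of plasma cells, read 10.71, 10.62, 10.82, 9.39 and 8.98. Id3, an inhibitor of E proteins, read 5.67, 5.91, 4.93, 3.97 and 4.78, so that mouse 3 was not high. Spi1, the gene of PU.1, which neutrophils and monocytes also make, read 9.38 in mouse 4, within the 8.13 to 9.95 of mice 1 to 3, and 7.28 in mouse 5. Ikzf1, the lymphoid factor Ikaros, read 9.27 in mouse 4 and 6.42 in mouse 5, with its highest value, 10.51, in mouse 3. Bcl6 read 10.02 in mouse 4, where mice 1 to 3 read 9.98 to 10.00, and 9.20 in mouse 5. Pou2f2, the Oct factor that Pou2af1 binds, read 4.10 and 4.24 in mice 4 and 5 and 4.50 to 5.15 in mice 1 to 3. Ikzf3 read 5.42 in mice 4 and 5, above the 4.50 to 5.07 of mice 1 to 3, opposite to the members. The plasma cell regulator Prdm1 lay between 4.25 and 4.70 in the mice and was not tested.

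Of the B cell surface and signalling list, 16 of 22 genes were tested and 14 varied more between mice, 12 without mouse 5 and 0 without mice 4 and 5, where 66.8%, 20.3% and 0.708% of all tested genes did. The 3 with the largest SD were Cxcr5, a receptor that guides B cells into follicles (SD 2.45), the kinase gene Blk (2.42) and the adaptor gene Blnk (2.27). Cxcr5 read 8.64, 8.82, 10.63, 4.84 and 5.44 in mice 1 to 5, and Blk read 8.97, 9.16, 10.08, 4.96 and 5.16. Cd79a, a chain of the B cell receptor, was at 6.52 in mouse 4, 7.40 to 8.11 in the rest, and did not pass (limma adjusted p = 0.0641). Btk and Cd37 read 8.50 and 9.16 in mouse 4, near mice 1 to 3, and 5.97 and 6.06 in mouse 5. The Ighm probe set stayed between 3.53 and 3.97 on all arrays.

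The mean deviation of the list genes by array was set beside that of the members. The 6 tested members stood at 0.86, 0.93, 1.94, -2.83 and -1.68 in mice 1 to 5. The pool portions stood at 0.91, -0.10, 0.08, 0.04 and -0.18. The 16 B cell genes stood at 0.72, 0.75, 1.31, -1.83 and -1.51 in the mice and at -0.17 to 0.65 in the pool, with pool 1 again highest. In bulk samples, fewer B cells and less RNA of these genes per cell cannot be told apart.

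The counts in the lists of other cell types stand beside the same shares of all tested genes, 66.8% with all mice and 20.3% without mouse 5. The 7 tested plasmacytoid dendritic cell genes stood at 0.19, 0.24, 0.35, -0.28 and -0.62 in the mice, and 6 varied more between mice, 1 without mouse 5. That one was Tcf4, which B cells also make, with 7.32, 7.18, 8.95, 4.04 and 4.33. Irf7 and Lair1, next by SD, were also lower in mice 4 and 5 than in mice 1 to 3, but were not high in mouse 3. Irf7 read 9.28, 9.08, 8.60, 8.18 and 5.94 in mice 1 to 5, and Lair1 read 6.29, 6.51, 6.02, 5.44 and 5.01. The 7 T cell genes stood at -0.10, -0.05, -0.04, -0.54 and -0.20 in mice 1 to 5, lowest in mouse 4. Cd2 read 7.54, 7.76, 9.04, 5.64 and 5.57 and was the 1 of them to pass without mouse 5, and 2 of the 7 passed with all mice. Cd3d, part of the T cell receptor complex, was at 5.67 in mouse 4 and 5.46 to 5.51 in mice 1 to 3. Lat, an adaptor of T cell signalling, was at 6.57 in mouse 4 and 5.77 to 7.02 in mice 1 to 3.

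Monocyte and macrophage genes stood at 0.59 in mouse 3, -0.51 in mouse 4 and -0.97 in mouse 5, with 7 of 10 passing, 4 without mouse 5. Ly86, made by B cells and macrophages, read 8.55, 8.78, 10.06, 5.43 and 7.06, and C1qc read 6.92, 5.88, 8.06, 4.35 and 5.45. Cd68 read 9.05 in mouse 4, the highest of the mice, and 3.89 in mouse 5. In pool 1 this list stood at 0.66, against -0.11 to 0.16 in pool 2 to pool 5. Red cell genes stood at -1.58 and -1.32 in mice 4 and 5 and 0.39 to 0.97 in mice 1 to 3, with 2 of 3 passing, also without mouse 5. The most variable of these were Hba-a1 (SD 1.47), Alas2 (1.40) and Slc4a1 (1.27).

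Platelet genes stood at -1.80 in mouse 3, the lowest of the mice, and 0.78 to 1.12 in the pool, so they did not run with the members. Of these, 8 of 10 passed and 6 did without mouse 5. Gp1bb, Gp9 and Treml1 read 8.70, 7.32 and 7.78 in mouse 3. Neutrophil genes stood at -0.19 in mouse 4, between the -0.63 and 1.25 of mice 1 to 3, and at -2.50 in mouse 5. Here 8 of 10 passed, 3 without mouse 5. Lcn2 read 12.43 in mouse 4 and 5.36 in mouse 5, and Ltf and Camp read 12.56 and 11.80 in mouse 3 against at most 7.41 and 7.29 in the other mice. Low values of the members in mouse 4 thus came with neutrophil genes at the level of the other mice, and in mouse 5 with a low mean of that list. The list was not low throughout in mouse 5: S100a8 read 13.29 there, where the 10 arrays ran from 12.67 to 13.29. Csf3r, the receptor for granulocyte colony-stimulating factor, was low in mouse 5, with 9.68 against at least 11.42 on the other arrays. The part of B cells, of other cells and of array quality in the result was not tested.

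**Figure D4:**
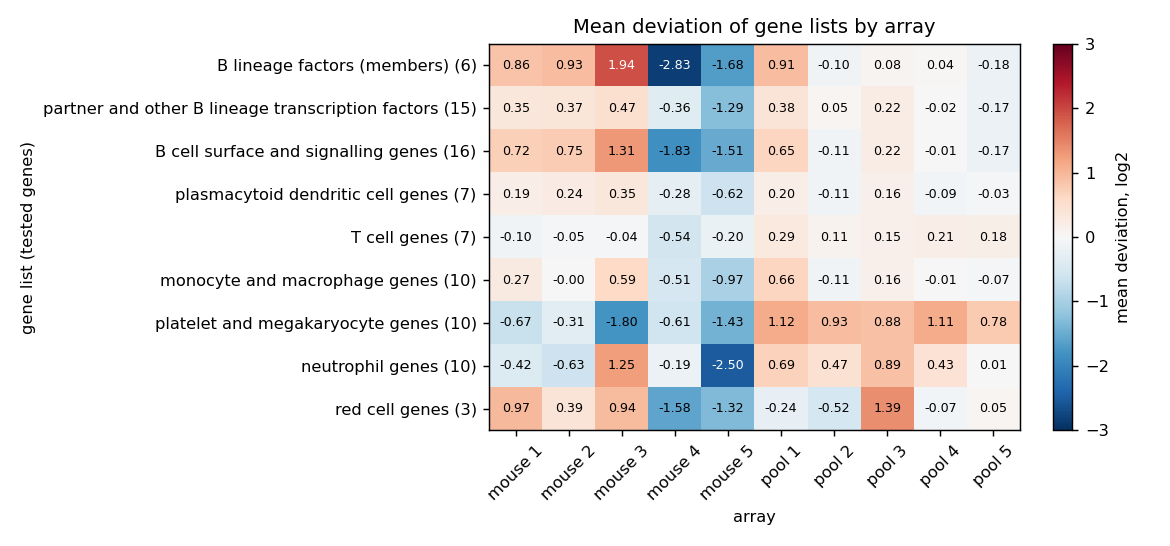
Mean deviation (log2, colour and number) of the tested genes of each list from their means over the 10 arrays, by array (columns); the number of genes is in brackets. The members run from 1.94 in mouse 3 to -2.83 in mouse 4, the B cell genes from 1.31 to -1.83, and the neutrophil genes reach their lowest value, -2.50, in mouse 5.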

How the data were processed

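The deposited table of log2 values was made by the authors with RMA, per the submitters' processing notes; the version and the background step are not given in the sources used here. Of 45141 probe sets, 104 controls were set aside, 551 carried several gene symbols and 15588 none, and 28898 carried 1. IDs of 16936 of 17097 genes, and of all 7 members, matched the RefSeq table of GRCm38.p6. The probe set with the highest mean stood for each gene, and tests covered the 10734 genes whose mean exceeded 4.58 (the median over probe sets). Labelling was 2-cycle, which amplifies the RNA more than once.

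The variance between 5 mice was divided by that between 5 pool arrays, moderated with an intensity trend (limma 3.58.1, R 4.3.3), one-sided. Means were compared with the variance of the mice alone. The adjusted p threshold was 0.05. Python 3.11.15 with matplotlib 3.10.9 drew the plots.

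The members, lists and tests were chosen with earlier results of these data known. Named are all members and their probe sets, the 3 most variable genes of each list among the mice, and the 3 genes closest to each member; other genes of the lists were named after their values were seen. The fixed lists were those of partner factors, B cell, plasmacytoid dendritic cell, T cell, monocyte, platelet, neutrophil and red cell genes. Alternatives were other filters, normalizations, probe sets and fits, and each array left out.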

Additional observations from a re-analysis of the deposited data

Results flagged for a closer look

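Pax5 read 3.26 in mouse 4, far from the other mice, the nearest of which read 4.49. The gap was 0.753 of the range of the 5 mice. This was the 1 of 16 groups of 5 arrays screened (7 members and Ms4a1, mice and pool) in which an array stood apart by Dixon's criterion, and chance flags about 1 in 20 groups.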

How the results depend on the processing

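The count of members that varied more between mice was 6 without any single mouse or pool array (lowest and highest 6), 6 or 7 under every other filter, normalization, probe set choice and moderation run (6 also with values below 4.58 raised to it, added after the data were seen), 0 without mice 4 and 5, and 0 in the Levene-type test. Without mice 4 and 5 the log2 variance ratio of Bach2 turned to -4.70. The count of members whose mean differed was 0 in all other settings, with each array left out in turn too, and 1 without mice 4 and 5. Differences of the mean, none of which passed with all mice, changed sign. They were 1.08 for Ebf1, 1.30 for Pou2af1, 1.26 for Spib, 1.09 for Bach2 and 0.88 for Mef2c without mice 4 and 5, and 0.080 for Ebf1 with the probe set of median mean. With 1 array left out they ran from -1.03 to 0.52 for Ebf1, -1.27 to 0.28 for Pou2af1, -0.84 to 0.34 for Spib, -0.82 to 0.32 for Bach2, -0.70 to 0.21 for Mef2c and -0.32 to 0.56 for Bcl11a. The cause was not tested. By the labels, the replicate numbers do not pair mice and pool portions. Deviations of same-numbered arrays correlated at -0.26 to 0.50. Arrays of unlike number were not compared, so these correlations do not decide whether numbers share a processing step. With the replicate number as a block the count of differing means was 0. Pairs of mice in the order of Ms4a1 were 50 to 67 of 70 under the other choices; the lowest count came with Cd79a as the reference.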
